A study of Homo sapiens with 14 samples.

Results

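RLN1 and RLN2 encode human relaxins, and each was read by 1 probe set on Affymetrix arrays of LNCaP cells, an androgen-responsive line from a human prostate cancer metastasis. The 2 genes were taken from 19775 with a probe set of a single gene symbol, and their 2 probe sets from 54613. They were selected on their measured signals, because both were lower with the wild-type EZH2 plasmid (si-EZH2&EZH2sr) than with the siRNA alone (si-EZH2), so their own values in any comparison with either group are given as descriptions without a test. EZH2 is the methyltransferase of the Polycomb complex PRC2 and marks histone H3 at silenced genes. The 14 arrays formed 7 groups of 2. Untransfected cells received TSA at 5 uM (trichostatin A, which blocks histone deacetylases), Roscovitine at 10 uM (a blocker of cyclin-dependent kinases) or DMSO at 0.1%, each for 24 h. Transfected cells received si-EZH2 together with an RNAi-resistant plasmid of T350A-mutated EZH2 (si-EZH2&T350Asr), the same siRNA with an RNAi-resistant plasmid of unmutated EZH2 (si-EZH2&EZH2sr), si-EZH2 alone, or a control siRNA (si-Control), each for 60 h. All groups share 1 established cell line, both plasmid groups also carry si-EZH2, and no label names an empty plasmid for them.

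Relaxins are small secreted hormones of the insulin family. They are made as a prohormone from which a connecting peptide is cut, and they leave an A and a B chain joined by disulphide bonds. The product of RLN2 is the relaxin of human blood, made mainly by the corpus luteum and also by the prostate, which secretes it into semen. It binds RXFP1, a receptor coupled to G proteins that raises cyclic AMP and nitric oxide, and it is known for loosening connective tissue and widening vessels. RLN1 is a close copy found in humans and great apes, and less is known of its peptide.

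Both genes lie on the minus strand of chromosome 9 in GRCh38.p14. In the RefSeq gene table RLN1 (gene ID 6013) spans 5987 bases, chr9:5334930-5340916, and RLN2 (gene ID 6019) spans 39463 bases, chr9:5299864-5339326, so that the annotated spans overlap by 4397 bases. The probe sets were 211753_s_at for RLN1 and 214519_s_at for RLN2. Affymetrix gives the suffix of both names to probe sets that match more than 1 transcript. Whether each read only its own gene was not tested, since probe sequences were not used here.

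The 250 bases upstream of an annotated start of each gene are shown because they display how alike the 2 copies are. They come from the RefSeq promoter table (GRCh38.p14), which held both genes, run 5′ to 3′ on the minus strand and cover chr9:5339877-5340126 for RLN1 and chr9:5304717-5304966 for RLN2. Capitals mark the positions at which the aligned sequences differ or at which 1 of them has a gap.
RLN1: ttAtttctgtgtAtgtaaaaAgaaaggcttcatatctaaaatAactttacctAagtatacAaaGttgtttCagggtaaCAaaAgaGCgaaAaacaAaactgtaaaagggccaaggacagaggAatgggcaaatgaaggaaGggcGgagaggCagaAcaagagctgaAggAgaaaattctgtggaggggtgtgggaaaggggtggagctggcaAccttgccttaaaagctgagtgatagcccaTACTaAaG
RLN2: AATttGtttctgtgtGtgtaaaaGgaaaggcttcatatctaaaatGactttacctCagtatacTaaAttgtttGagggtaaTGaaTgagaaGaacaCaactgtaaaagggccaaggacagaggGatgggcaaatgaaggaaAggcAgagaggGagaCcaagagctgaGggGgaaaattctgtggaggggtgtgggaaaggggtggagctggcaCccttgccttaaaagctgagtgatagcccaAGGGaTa
The windows matched at 221 of 247 aligned bases, or 89.5%, with 26 differences and 6 gap positions. The differences were unevenly spread. The stretch from gaaaattctgtgg to gatagccca differed only at the base after ggagctggca, while the bases between that stretch and the start differed at most positions. RefSeq lists another start of RLN2, with the window chr9:5304229-5304478, which matched the RLN1 window at only 106 of 190 aligned bases (55.8%). The printed RLN2 window was chosen because it has more bases identical to RLN1, so its match is the higher of the 2 by choice. Both printed windows lie inside the annotated gene spans, and which start LNCaP cells use cannot be read from these arrays.

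Both printed windows were poor in CG, the dinucleotide that carries DNA methylation. RLN1 had 2 CG and 42.0% G and C, and RLN2 had 0 CG and 45.2% G and C. The median of 35097 promoter windows of the same length was 11 CG and 58.0% G and C. The other RLN2 window had 20 CG and 63.6% G and C. Motifs were searched on both strands. AGAACA, the core letters of androgen receptor motifs, stood once in each printed window, at base -98 of RLN1 and -160 of RLN2, and 12.4% of all windows hold it. GGGCGG, the GC box, stood once in RLN1, at -110, and not in the printed RLN2 window (42.6% of windows). No match to TATAAA (10.7% of windows), CCAAT (32.0%), TGACGTCA (1.6%) or TGANTCA (6.6%) was present in either printed window. The other RLN2 window held 3 GGGCGG and 4 CCAAT matches, with none of the other letters. These matches describe the letters only.

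The arrays had medians of 107.2 to 117.0, with a signal under 50 in 31.7% to 34.5% of probe sets. Roscovitine replicate 2 and si-EZH2&T350Asr replicate 2 deviated from their partners in a like way: the differences between replicates correlated at 0.655 across 15762 genes between these 2 groups, against at most 0.225 for any other pair of groups. Results are also given without both, called the 2 deviating arrays, where that ended a call or moved a value by over 1.5 times.

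Both probe sets were well within the range of expressed genes. Averaged over the 14 arrays the signal of the RLN1 probe set was 885.1, above 84.1% of all probe sets, and that of RLN2 was 796.2, above 82.7%. Both passed the low-signal limit of 50 used as an alternative. Signals are the authors' summarized linear intensities, and tests used log2(signal + 16), so that differences understate the change of low signals.

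RLN1 had signals of 153 and 145 in the TSA arrays, 965 and 1036 with Roscovitine, and 1059 and 1088 with DMSO. In the transfected cells RLN1 read 822 and 877 with si-EZH2&T350Asr, 499 and 698 with si-EZH2&EZH2sr, 989.8 and 928 with si-EZH2, and 1655 and 1475 with si-Control. The TSA arrays were the lowest and the si-Control arrays the highest of the series, each apart from all other groups. Ordered by the mean, RLN1 stood at 149.2 ± 5.71 with TSA, 598.6 ± 141 with si-EZH2&EZH2sr, 849.3 ± 38.9 with si-EZH2&T350Asr, 959.1 ± 43.4 with si-EZH2, 1001 ± 50.4 with Roscovitine, 1073 ± 20.3 with DMSO and 1565 ± 127 with si-Control (SD, n = 2 each). Of neighbours in this order, the arrays of si-EZH2 and Roscovitine overlapped and the others did not.

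RLN2 had signals of 298 and 279.6 in the TSA arrays, 895 and 753 with Roscovitine, and 887 and 831 with DMSO. In the transfected cells RLN2 read 789 and 692 with si-EZH2&T350Asr, 434 and 658 with si-EZH2&EZH2sr, 917 and 862 with si-EZH2, and 1512 and 1341 with si-Control. The lowest and highest groups were the same as for RLN1. The means were 288.6 ± 12.7 with TSA, 546.1 ± 158 with si-EZH2&EZH2sr, 740.7 ± 68.3 with si-EZH2&T350Asr, 823.6 ± 101 with Roscovitine, 858.9 ± 39.5 with DMSO, 889.2 ± 38.7 with si-EZH2 and 1426 ± 121 with si-Control (SD, n = 2 each). The middle of this order was less separated, since si-EZH2&T350Asr overlapped Roscovitine, Roscovitine overlapped DMSO and DMSO overlapped si-EZH2.

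**Figure D1:**
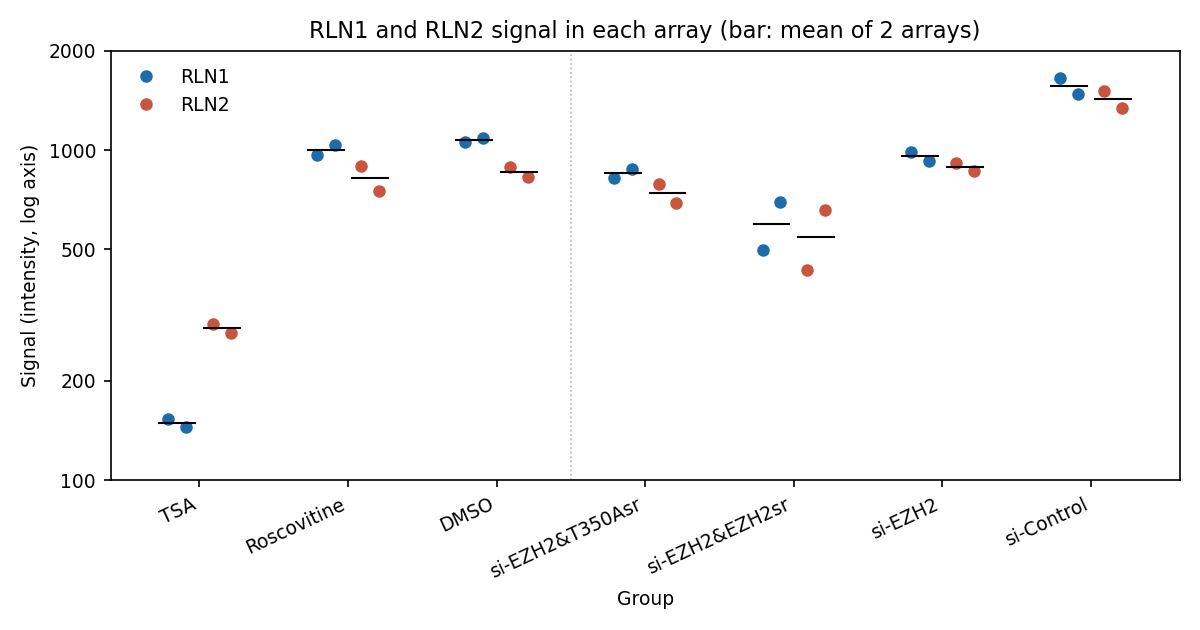
Signal of the RLN1 (blue) and RLN2 (red) probe sets in each array (points, log axis) by group, with the mean of 2 arrays as a bar; drug groups (24 h) stand left of the dotted line and transfected groups (60 h) right of it. TSA arrays lie lowest (153 and 145 for RLN1, 298 and 279.6 for RLN2) and si-Control arrays highest, and the 2 si-EZH2&EZH2sr arrays lie wider apart than those of other groups.

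TSA lowered the signals of both relaxin probe sets, and that of RLN1 more than that of RLN2. RLN1 with TSA was at 13.9% of its DMSO mean, a log2 difference of -2.72 ± 0.14 (SE; 95% interval -3.04 to -2.41), or 6.60-fold lower, with an adjusted p of 6.88e-07 in limma. RLN2 with TSA was at 33.6% of its DMSO mean, a log2 difference of -1.52 ± 0.17 (-1.92 to -1.13), or 2.87-fold lower, adjusted p = 0.000105 in limma. TSA changed much of the array: 31.9% of all probe sets passed the test in either direction and 16.3% were lower, so a call alone is not unusual there. By size, the RLN1 difference was the 186th lowest of 54613 and that of RLN2 the 1191st lowest. In RNA of whole cultures, fewer expressing cells and less RNA per cell cannot be told apart. No label says whether replicate arrays stand for separate cultures, so the p-values cover the spread between arrays alone, and 2 arrays a group limit the precision.

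Within each array the gap between RLN1 and RLN2 could be compared between treatments, since what is common to an array drops out. Any reading of the other gene's RNA by a probe set would not drop out, and it was not tested. TSA against DMSO moved RLN1 by 1.20 more on the log2 scale than RLN2 (RLN1 minus RLN2 -1.20 ± 0.13, 95% interval -1.50 to -0.90, from a linear model with 7 residual degrees of freedom). Against Roscovitine the figure was -1.16 (-1.46 to -0.86). In the other tested comparisons the interval of this difference included 0: 0.06 (-0.24 to 0.36) for si-EZH2&T350Asr against si-Control, -0.18 (-0.48 to 0.12) for si-Control against DMSO and -0.04 (-0.34 to 0.26) for Roscovitine against DMSO. The intervals leave room for differences of up to 0.48 on the log2 scale, so they do not show that the genes move alike.

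**Figure D2:**
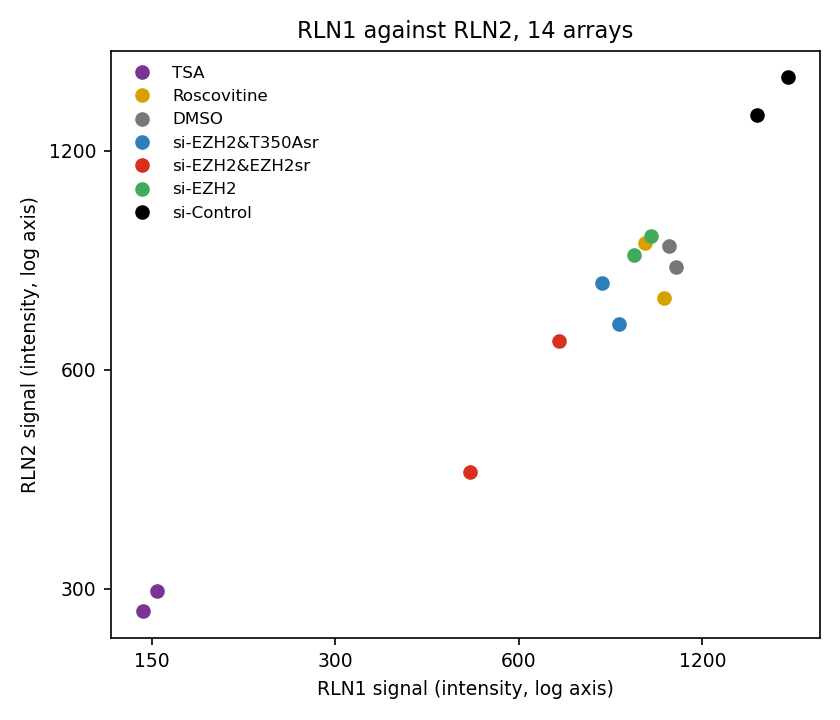
RLN2 signal against RLN1 signal in each of the 14 arrays (both axes log), coloured by group. The other arrays follow 1 diagonal and the 2 TSA arrays lie to the left of it, at 153 and 145 for RLN1.

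Roscovitine at 10 uM left both genes near their DMSO level. The log2 difference from DMSO was -0.10 ± 0.14 for RLN1 (95% interval -0.41 to 0.21, adjusted p = 0.824) and -0.06 ± 0.17 for RLN2 (-0.46 to 0.33, adjusted p = 0.927) in limma, where 1.26% of probe sets were called. The arrays of both groups overlapped for RLN2 but not for RLN1, with Roscovitine the lower. Without Roscovitine replicate 2, or without both deviating arrays, the RLN2 difference was 0.06. With TSA both were lower than with Roscovitine, with log2 differences of -2.62 for RLN1 (6.15-fold lower, adjusted p = 8.87e-07) and -1.46 for RLN2 (2.75-fold lower, adjusted p = 0.000138), where 16.6% of probe sets were lower.

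With si-EZH2&T350Asr both relaxin genes were lower than with si-Control. RLN1 was at 54.3% of its si-Control mean, a log2 difference of -0.87 ± 0.14 (95% interval -1.18 to -0.55), adjusted p = 0.0271 in limma. RLN2 was at 51.9%, a log2 difference of -0.93 ± 0.17 (-1.33 to -0.54), adjusted p = 0.0466 in limma. Few genes were lower in this comparison: 1.02% of probe sets were called, and 0.156%, or 85, were called lower. RLN1 was the 151st lowest by size and RLN2 the 108th lowest. Both calls stood close to the threshold. Leaving out 1 array ended the RLN1 call except without a Roscovitine or si-EZH2&EZH2sr array, and the RLN2 call except without a si-EZH2&EZH2sr array, with the differences staying between -0.95 and -0.79 for RLN1 and between -1.02 and -0.84 for RLN2. With the transfected arrays fitted alone the adjusted p was 0.213 for RLN1 and 0.248 for RLN2. Without the 2 deviating arrays the differences were -0.91 (adjusted p = 0.100) and -0.84 (0.189). This comparison shares its si-Control arrays with the si-EZH2 and si-EZH2&EZH2sr comparisons given below.

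The si-Control arrays, the highest of the series for both genes, were also set against the DMSO arrays, which differ from them in transfection, in the time of harvest and in solvent. RLN2 was 1.65-fold higher with si-Control (log2 0.72 ± 0.17, 95% interval 0.33 to 1.11, adjusted p = 0.0470 in limma). RLN1 was 1.45-fold higher (0.54 ± 0.14, 0.22 to 0.85), with an adjusted p of 0.0613, which did not pass. In this comparison 5.62% of probe sets were called and 2.26% called higher. The calls differ although the 2 genes' differences do not separate beyond their error. The RLN2 call was lost without any single array other than the si-EZH2&EZH2sr ones (adjusted p up to 0.253), and the RLN1 difference passed without either si-EZH2&EZH2sr array (adjusted p = 0.0100). Which of transfection, time and solvent goes with the difference cannot be told apart.

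For RLN1 and RLN2, comparisons that include si-EZH2 or si-EZH2&EZH2sr were used in the selection and are described only. Other genes were not selected on them, and their tests in these comparisons are given further on. EZH2 itself (probe set 203358_s_at) read 815.9 ± 13.8 with si-EZH2&T350Asr, 830.7 ± 11.7 with si-EZH2&EZH2sr, 392.9 ± 0.516 with si-EZH2 and 1191 ± 42.8 with si-Control (SD, n = 2 each). The siRNA therefore left 33.0% of the si-Control signal, and 68.5% and 69.8% were present with the T350Asr and EZH2sr plasmids.

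RLN1 with si-EZH2 was at 61.3% of its si-Control mean and RLN2 at 62.3%, log2 differences of -0.70 and -0.67 (0.233% of probe sets called). With si-EZH2&EZH2sr the signals were lower than with si-EZH2, with log2 differences of -0.68 for RLN1 (1.61-fold lower) and -0.72 for RLN2 (1.64-fold lower), where 6.37% of probe sets were called. The 2 si-EZH2&EZH2sr arrays were far apart, however. Without si-EZH2&EZH2sr replicate 1 the differences were -0.45 and -0.43, and without replicate 2 they were -0.92 and -1.01. Both genes were thus at their lower value in the same array of the pair.

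With si-EZH2&T350Asr the log2 differences from si-EZH2 were -0.17 for RLN1 and -0.26 for RLN2, where 0.342% of probe sets were called. Without the 2 deviating arrays these were -0.22 and -0.17. The signals stood 0.51 and 0.46 above those with si-EZH2&EZH2sr, where 0.0348% were called, and 0.28 and 0.16 above without si-EZH2&EZH2sr replicate 1. Against si-Control, si-EZH2&EZH2sr was lower, with log2 differences of -1.38 for RLN1 (2.60-fold) and -1.39 for RLN2 (2.61-fold), where 3.87% of probe sets were called. All 3 groups that received si-EZH2 were below si-Control, the highest group of the series, for both genes. Of these groups, si-EZH2 and si-EZH2&EZH2sr were used in the selection. EZH2 was also below its si-Control signal in all 3. Of these groups it was lowest with si-EZH2, whereas both relaxin genes were lowest with si-EZH2&EZH2sr. Their fall from si-EZH2 to si-EZH2&EZH2sr is what they were selected for. In untransfected cells EZH2 read 854 and 824 with TSA, 849 and 742 with Roscovitine, and 1099 and 1085 with DMSO. Its log2 differences from DMSO were -0.375 with TSA and -0.452 with Roscovitine. Whether EZH2 has a part in these values was not tested.

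**Figure D3:**
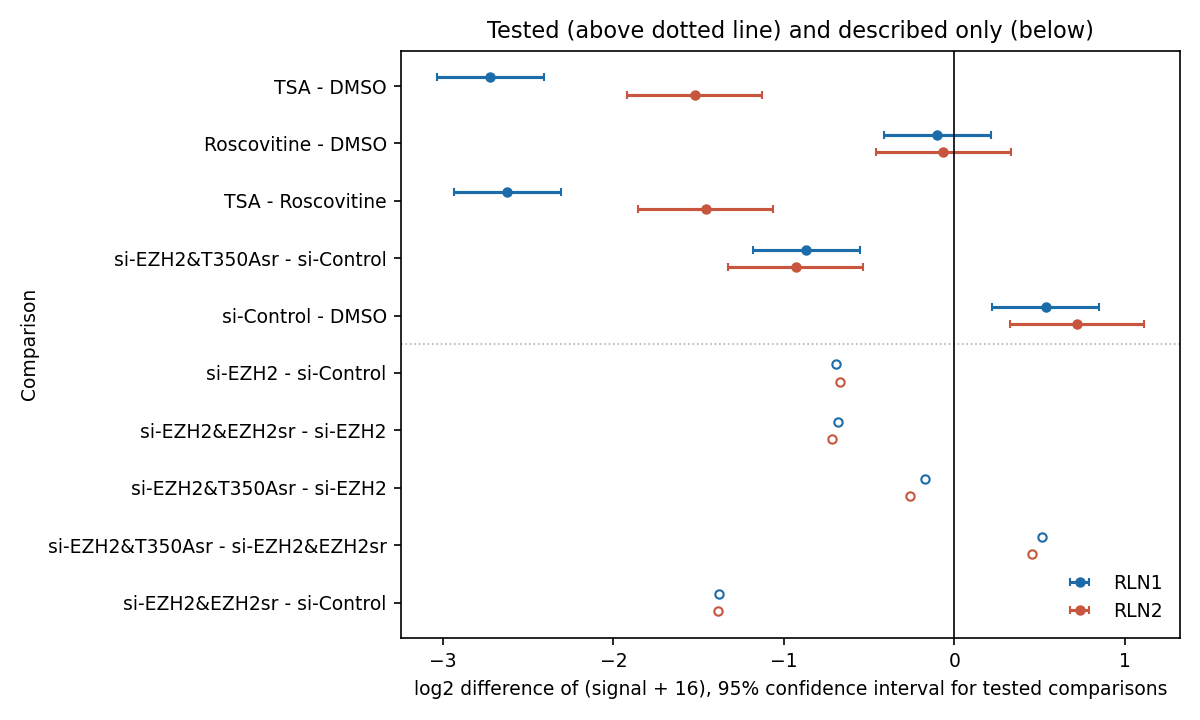
Log2 differences of (signal + 16) for RLN1 (blue) and RLN2 (red) in each comparison, with 95% confidence intervals above the dotted line, where comparisons were tested, and open points below it, where they are described only because their groups were used in the selection. The TSA differences lie farthest from 0 (-2.72 and -1.52 against DMSO) and the Roscovitine intervals include 0.

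Over the 14 arrays the RLN2 pattern was most like that of RLN1 among 15761 other genes with a mean signal of at least 50 (Pearson r = 0.960 of log2 signals, and 0.958 without the TSA arrays). After RLN1, the genes most like RLN2 were ADD1, a membrane skeleton protein (0.957), TTC8, a protein of the cilium base (0.952), FDX1, an electron carrier of steroid synthesis (0.950), and CLN8-AS1 (0.950). For RLN1 the gene ranked highest was DDC, the decarboxylase of dopamine synthesis (0.987, and 0.931 without the TSA arrays), followed by E2F5, a transcription factor (0.984), MESP1, a transcription factor of early mesoderm (0.981), ARL6IP5, a membrane protein (0.977), and MAPK12, a p38 kinase (0.975). RLN2 was 41st for RLN1. DDC averaged 146.1 with TSA and 1379 with DMSO, and 1028 with si-EZH2&EZH2sr and 2472 with si-Control. It was picked for its likeness to RLN1 over these same arrays, so a like order of groups follows from the choice.

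The opposite pattern was that of WIPI1, a protein of autophagosome formation, with r = -0.988 for RLN1 and -0.965 for RLN2. WIPI1 averaged 1292 with TSA and 103.9 with DMSO, and 307.6 with si-EZH2&EZH2sr and 61.36 with si-Control. Next for RLN1 were CALU, a calcium-binding protein (-0.981), and NXN, a redox protein (-0.981). For RLN2 the most opposite were EFNA3, an ephrin (-0.972), and MARCHF3, a ubiquitin ligase (-0.969). The arrays share 7 treatments, and the TSA arrays carry much of the spread. The correlations are descriptions of these 14 arrays, which include the si-EZH2 and si-EZH2&EZH2sr arrays used to select RLN1 and RLN2 together. Whether the RLN1 and RLN2 probe sets read each other's RNA was not tested.

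The other peptides of the relaxin family were measured as ligands beside RLN1 and RLN2, with 5 of 5 having a probe set. INSL3, the hormone of testicular descent, read 2991 to 4342 over all arrays on 1553594_a_at, its brightest probe set of 3. The others read far lower, 62.4 to 93.7 (214572_s_at) and 9.4 to 31.7 (214400_at). Whether the bright signal is that of INSL3 was not tested. INSL4, a placental peptide, read 9.04 to 42.4, INSL5, a gut peptide, 16.6 to 52.3, INSL6, a peptide of the testis, 1.00 to 15.0, and RLN3, the relaxin of the brain, 1.00 to 4.84. Of these 5, none was called in the TSA, Roscovitine, si-EZH2&T350Asr and si-Control comparisons that were tested for RLN1 and RLN2 (limma; 0 also at an unadjusted p under 0.05). INSL4 fell with si-EZH2&EZH2sr against si-EZH2 (-0.81 ± 0.18, adjusted p = 0.031 in limma), with signals of 24.0 and 9.04 against 37.1 and 42.4, all of them under 50, in a comparison where 4.17% of probe sets were lower. That call was lost without Roscovitine replicate 2 and si-EZH2&T350Asr replicate 2.

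Of the 4 receptors 3 had a probe set. RXFP1, the receptor of relaxin, read 10.9 to 44.8 on its brightest probe set, RXFP2, the receptor of INSL3, 17.2 to 64.3, and RXFP3, the receptor of RLN3, 62.3 to 99.0. None of the 3 was called in any comparison in limma, although RXFP1 with si-Control against DMSO (-0.88, adjusted p = 0.194) and RXFP2 with si-EZH2&T350Asr against si-EZH2&EZH2sr (0.64, adjusted p = 0.360) had an unadjusted p under 0.05. Their low signals limit what could be detected.

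Enzymes that cut prohormones were the next group, with 7 of 9 measured. TSA raised 2 of the 7 and lowered 0 against DMSO, beside 15.5% of probe sets higher and 16.3% lower. CPD, a carboxypeptidase that trims cut peptides, rose by 0.75 on the log2 scale, to 2123 and 2186 with TSA, against 1244 and 1312 with DMSO (adjusted p = 3.14e-05 in limma). PCSK7, a convertase, rose by 0.78 (adjusted p = 0.0247), to 129 and 117 with TSA, against 53.9 and 77.5 with DMSO. The median of the 7 was 0.26, and of all probe sets 0.01. Without the 2 deviating arrays 4 of the 7 were called higher. In the Roscovitine, si-EZH2&T350Asr and si-Control comparisons 0 of the 7 were called in limma, and at an unadjusted p under 0.05 there was 1, CPD, with Roscovitine (-0.21) and with si-EZH2&T350Asr (0.21).

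Signalling below RXFP1 was represented by 25 of 25 genes of cyclic AMP, protein kinase A and nitric oxide. With TSA 5 were higher and 7 lower than with DMSO, with a median of -0.04, beside 15.5% of all probe sets higher and 16.3% lower. Without the 2 deviating arrays 9 were lower. PRKACB, a catalytic subunit of protein kinase A, fell by 3.18 on the log2 scale (SE 0.09, adjusted p = 2.64e-08 in limma), to 1043 and 976 with TSA, against 9219 and 9339 with DMSO. PRKACA, the other main catalytic subunit, rose by 0.90 (adjusted p = 0.000162), to 3943 and 3603 with TSA, against 2055 and 1964 with DMSO. The regulatory subunits moved apart as well, PRKAR2B by 0.91 (adjusted p = 2.27e-05) and PRKAR2A by -1.03 (2.89e-05). A dimmer PRKAR2A probe set, 204842_x_at, showed no fall, with 2203 and 1967 with TSA, against 1987 and 1932 with DMSO. The remaining PRKAR2A probe sets were lower with TSA.

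In the transfected cells PRKACA was the 1 gene of the 25 called with si-EZH2&T350Asr against si-Control (-0.92 ± 0.11, adjusted p = 0.00823), with 789 and 976 against 1690 and 1662. It was also the 1 called with si-EZH2 against si-Control (-0.84, adjusted p = 0.0244), with 957 and 902, against the same si-Control arrays. The dimmer PRKACA probe set, 216234_s_at, showed no such fall. It read 85.6 and 88.1 with si-EZH2&T350Asr and 88.8 and 70.7 with si-EZH2, against 92.7 and 83.0 with si-Control. Of all probe sets 0.156% and 0.0330% were lower in these comparisons, and without the 2 deviating arrays 2 of the 25 were lower with si-EZH2. NOS3, the endothelial nitric oxide synthase, rose with si-Control against DMSO by 2.48 ± 0.14 (adjusted p = 0.000112), to 438 and 406, against 59.4 and 66.0, while PDE4B, which breaks down cyclic AMP, fell by 0.62 (0.0224), beside 2.26% of probe sets higher and 3.36% lower. Without the 2 deviating arrays 2 of the 25 were lower there. The dimmer NOS3 probe set, 229093_at, went the other way, with 15.74 and 14.25 with si-Control, against 37.53 and 24.94 with DMSO. With si-EZH2&EZH2sr against si-EZH2 2 rose (NOS3 by 0.70, adjusted p = 0.0230, and CREB1, the cyclic AMP response factor, by 0.35, 0.0301) and 3 fell (ADCY1, an adenylyl cyclase, by 0.58, 0.0098; PRKAR2B by 0.48, 0.0140; PRKAR2A by 0.45, 0.0307), beside 2.20% of probe sets higher and 4.17% lower. With Roscovitine 0 of the 25 were called in limma, and 3 had an unadjusted p under 0.05.

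Of 16 genes reported to respond to relaxin in other tissues, 15 were measured. With TSA 5 were higher and 3 lower than with DMSO, with a median of 0.28, beside 15.5% of all probe sets higher and 16.3% lower. Without the 2 deviating arrays 4 were higher. VEGFA, a growth factor of vessels, fell by 0.96 (SE 0.09, adjusted p = 2.22e-05 in limma), to 1208 and 1081 with TSA, against 2160 and 2312 with DMSO. FN1, fibronectin, fell by 0.83 (3.94e-05), whereas COL1A1, a collagen chain, rose by 1.49 (6.22e-05) and TIMP2, a protease inhibitor, by 0.74 (7.92e-05). With Roscovitine only FN1 was called (-0.56, adjusted p = 0.0196, beside 0.919% of probe sets lower), and it was not without the 2 deviating arrays. VEGFA was the 1 gene called with si-EZH2&T350Asr against si-Control (0.57, adjusted p = 0.0222) and with si-Control against DMSO (1.03, 0.00051), where 0.866% and 2.26% of probe sets were higher. With si-EZH2&EZH2sr against si-EZH2 VEGFA (0.59, 0.00862) and FN1 (0.45, 0.0162) rose, beside 2.20% of probe sets. Whether the level of relaxin has any part in these values was not tested.

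The region around the relaxin genes was examined in a window of 500 kb to either side, in which 8 other genes had a probe set. PLGRKT, a plasminogen receptor 17.1 kb away on the RLN1 side, was the nearest. It had 2045 and 1997 with TSA, against 2595 and 2599 with DMSO (-0.36 ± 0.10, adjusted p = 0.0161 in limma). It had 2347 and 2354 with si-EZH2&T350Asr, against 3447 and 3306 with si-Control (-0.52 ± 0.10, adjusted p = 0.0429), a call lost without the 2 deviating arrays. PLGRKT was thus lower where both relaxin genes were lower, by less in each case, and with si-Control against DMSO it stood 0.38 higher (adjusted p = 0.0537, not called). It differed from them with Roscovitine, where it read 3347 and 3378, above both DMSO arrays (0.37, adjusted p = 0.115, not called).

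INSL4, 64.6 kb to the other side, was not called in these 4 comparisons, and neither were INSL6, CD274, a ligand of an immune checkpoint receptor, PDCD1LG2, its paralogue, and RIC1, a Golgi trafficking factor. JAK2, a cytokine receptor kinase 169.9 kb away, rose with si-Control against DMSO (0.73 ± 0.13, adjusted p = 0.0104) and was not called with TSA on its brightest probe set (-0.29, adjusted p = 0.12), although 205841_at, another probe set of JAK2, fell with TSA (-0.69, 0.000434). ERMP1, a peptidase of the endoplasmic reticulum 443.7 kb away, fell slightly with TSA (-0.22, 0.0384) on the brighter of its probe sets. Of the 8 neighbours 2 were called lower and 0 higher with TSA, beside 16.3% and 15.5% of probe sets, and 1 lower with si-EZH2&T350Asr, beside 0.156%. With si-EZH2&EZH2sr against si-EZH2 2 were called lower, INSL4 among them as given above, and 0 higher, beside 4.17% and 2.20%. Against si-Control, 1 was lower and 0 higher with si-EZH2&EZH2sr, beside 1.53% and 2.35%, and 0 were called with si-EZH2.

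**Figure D4:**
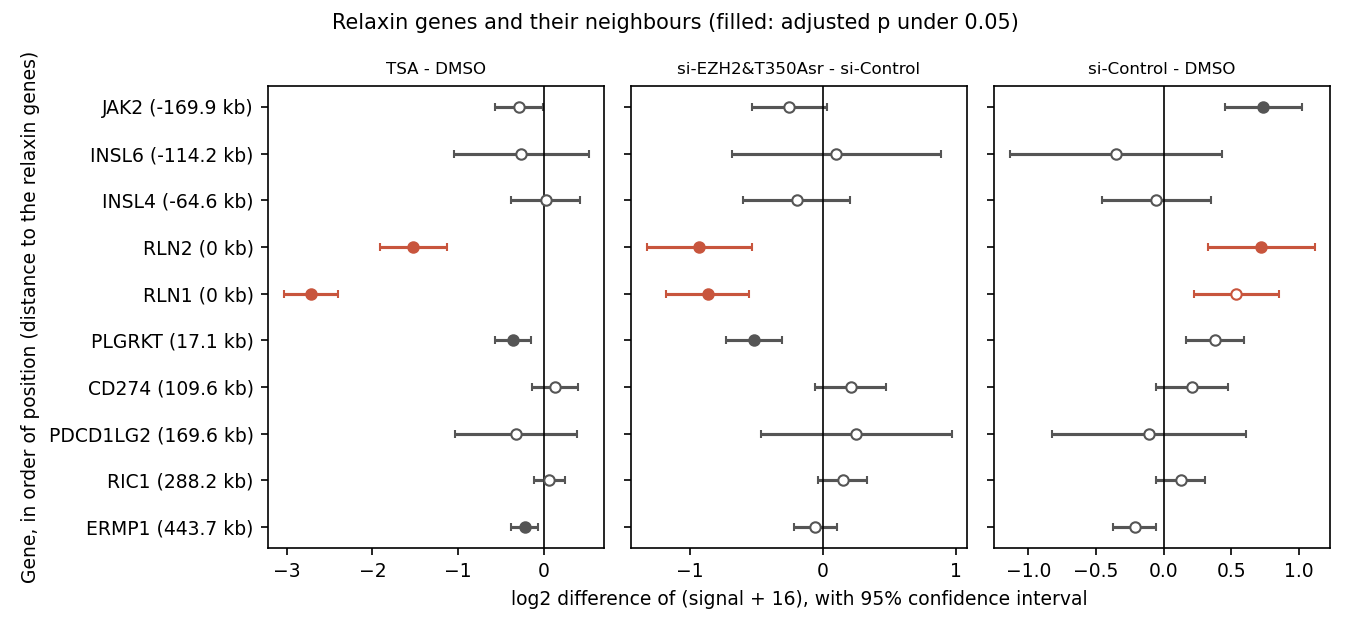
Log2 differences of (signal + 16) with 95% confidence intervals for the relaxin genes (red) and 8 neighbours (grey) in order along chromosome 9, with distance in kb, in 3 comparisons. Filled points had an adjusted p under 0.05; RLN1 and RLN2 lie farthest below 0 with TSA (-2.72 and -1.52) and PLGRKT lies below 0 with them in the first 2 panels.

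Of 9 markers of LNCaP and luminal prostate cells 7 were measured, and their signals summed to 14159 to 14836 with TSA, against 33608 to 34879 with DMSO. KLK3, which encodes prostate-specific antigen, fell with TSA by 4.95 on the log2 scale, KLK2 by 5.96, TMPRSS2 by 3.80, FOLH1 by 2.56 and HOXB13 by 0.99, while KRT8 rose by 0.93. The sum was 33116 to 37794 with Roscovitine. In transfected cells it was 29644 to 34429 with si-EZH2&T350Asr, 24675 to 30289 with si-EZH2&EZH2sr, 33924 to 34505 with si-EZH2 and 32048 to 32091 with si-Control. It reached its lowest values in the 2 groups with the lowest RLN1 and RLN2 signals, although the arrays of si-EZH2&EZH2sr and si-EZH2&T350Asr overlapped. The relaxin genes were selected for low values with si-EZH2&EZH2sr, and the part of the sum in those values was not tested. With si-EZH2&EZH2sr against si-EZH2 1 of the 7 markers was called lower and 0 higher, beside 4.17% and 2.20% of probe sets. KLK3 read 5100 and 8073 there, against 9832 and 9600, but KRT8 read 2891 and 2978, against 2525 and 2563. Neuroendocrine markers (3 of 3 measured) summed to 926.9 to 1052 with TSA, 382.3 to 612.4 with Roscovitine and 375.2 to 389 with DMSO. In transfected cells they summed to 358.8 to 613.9 with si-EZH2&T350Asr, 664.9 to 915.3 with si-EZH2&EZH2sr, 374.4 to 414.6 with si-EZH2 and 466.2 to 472.1 with si-Control. ENO2, a neuronal enolase, was called higher with TSA against DMSO (1.70) and with si-EZH2&EZH2sr against si-EZH2 (1.72), and SYP, a synaptic vesicle protein, with TSA (0.73). The neuroendocrine sum was thus highest in the same 2 groups, of which si-EZH2&EZH2sr was used to select the relaxin genes. Its part was not tested either. With si-EZH2&EZH2sr against si-EZH2 the rise of the sum was that of ENO2, and the median over the 3 markers was -0.03. SYP read 44.0 and 47.7 with si-EZH2&EZH2sr, against 56.7 and 59.4 with si-EZH2, and CHGA 215 and 137, against 193 and 160. Markers of androgen-independent prostate lines (5 of 6 measured) summed to 1628 to 1679 with TSA and 763.7 to 796 with DMSO, with VIM (1.29) and CAV1 (1.39) called higher, the other 3 (AXL, CD44 and KRT5) between -0.14 and -0.11, and a median of -0.11. Their sum was 717.3 to 757.4 with Roscovitine. In transfected cells it was 1242 to 1251 with si-EZH2&T350Asr, 1269.5 to 1363 with si-EZH2&EZH2sr, 1181 to 1241 with si-EZH2 and 1017 to 1145 with si-Control. With si-Control against DMSO 1 of the 5 was called higher and 0 lower, beside 2.26% and 3.36% of probe sets. VIM read 895 and 793 there, against 577 and 545. Leukocyte markers (3 of 4 measured, 1 under 50 in all arrays) summed to between 241.9 and 341.4 in every group, and fibroblast and endothelial markers (5 measured, 1 under 50 in all arrays) to between 2088 and 2967. Of the 3 leukocyte markers 1 was called lower and 0 higher with TSA against DMSO, beside 16.3% and 15.5% of probe sets. PTPRC read 48.9 and 46.6 with TSA, against 74.9 and 89.8 with DMSO. Among the fibroblast and endothelial markers TSA raised COL1A1 (1.49) and lowered COL3A1 (-0.79) and VWF (-0.70) against DMSO, with a median of -0.35 over the 5.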

How the data were processed

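LNCaP RNA was profiled on 14 arrays, 2 in each of 7 groups. Per the labels, extraction used the RNeasy kit of Qiagen, and biotin labelling Affymetrix's standard method. The authors deposited 1 linear intensity per probe set and array, 54613 probe sets in all, and the sources used here do not say how these were summarized and scaled. By the platform annotation 41091 probe sets carried 1 symbol (41037 matched by gene identifier), 1801 several and 11721 none. The second deposited table was not used.

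Signals were analysed as log2(value + 16). All 14 arrays entered 1 limma 3.58.1 fit (R 4.3.3) of 7 group means, with 7 residual and 2.09 prior degrees of freedom, so groups share 1 estimate of spread. P-values were adjusted over all 54613 probe sets by the Benjamini-Hochberg method and called at an adjusted p under 0.05. Other genes are represented by their probe set of highest mean. The difference between the RLN1 and RLN2 responses came from a linear model of their within-array difference.

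The members and lists were chosen with earlier results of these data known. Named were both members, EZH2, all measured family peptides and receptors, up to 4 called members of other lists per comparison, called and adjoining neighbours within 500 kb, and the 5 most and 3 least correlated genes. The probe set 205841_at was named after its values were seen. Sequences are from RefSeq, aligned with Biopython 1.88, and tables used pandas 2.3.3 in Python 3.11.15 and figures matplotlib 3.10.9. The steps were tested on simulated data. Alternatives were quantile normalization, equal medians, pseudocounts of 1 and 64, a mean signal of at least 50, 1 probe set a gene, the arrays of 1 experiment only, a replicate block, a robust prior with an intensity trend, and leaving out each array and both deviating arrays. Replicate differences correlated at -0.229 to 0.655 over 21 pairs of groups, over 0.1 in 3, so replicate numbers were not taken to pair samples.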

Additional observations from a re-analysis of the deposited data

How the results depend on the processing

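The TSA differences from DMSO and from Roscovitine kept their direction and their call in all 24 alternatives for RLN1 and RLN2 (RLN1 against DMSO -2.84 to -2.42, RLN2 -1.58 to -1.39). For si-EZH2&T350Asr against si-Control the direction held in 24 of 24, but the call was lost with the experiment alone (RLN1 -0.868, RLN2 -0.931) and without both deviating arrays (-0.914 and -0.839), and for RLN2 also with equal medians (-0.982), a pseudocount of 1 (-0.945) and the replicate block (-0.931, adjusted p = 0.0768). Leaving out 1 array gave -0.95 to -0.786 for RLN1 and -1.023 to -0.839 for RLN2. For si-Control against DMSO RLN1 passed with quantile normalization (0.591), a mean signal of at least 50 (0.535), 1 probe set a gene (0.535), a pseudocount of 64 (0.516) and the intensity trend (0.535), and RLN2 did not pass with equal medians (0.717), a pseudocount of 1 (0.729), the replicate block (0.72) or without both deviating arrays (0.72). Leaving out 1 array gave 0.453 to 0.617 for RLN1 and 0.634 to 0.805 for RLN2. Roscovitine against DMSO ranged from -0.151 to -0.05 for RLN1 and from -0.186 to 0.059 for RLN2, which turned to 0.059 without Roscovitine replicate 2 and without both deviating arrays. Of the described values, leaving out 1 array gave -0.92 to -0.449 and -1.007 to -0.425 for si-EZH2&EZH2sr against si-EZH2, 0.276 to 0.747 and 0.164 to 0.746 for si-EZH2&T350Asr against si-EZH2&EZH2sr, and -1.615 to -1.144 and -1.677 to -1.095 for si-EZH2&EZH2sr against si-Control. The cause of these changes was not tested.

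Counts of called probe sets moved by over 1.5 times in several settings. For si-EZH2&T350Asr against si-Control 558 became 864 with a pseudocount of 64, 929 with a mean signal of at least 50, 1288 with the intensity trend and 8 with the experiment alone. For Roscovitine 689 became 1291, 1278, 1591 and 0 in those settings, and 52 without both deviating arrays. For si-EZH2 against si-Control 127 became 312, 270, 417 and 2, then 68 with equal medians, 48 with the replicate block and 82 without both deviating arrays. For si-EZH2&EZH2sr against si-EZH2 3478 became 5226 with the trend, 3 with the experiment alone and 2246 with 1 probe set a gene, which tests fewer features, as do 8331 and 8514 where TSA had 17414 against DMSO and 18016 against Roscovitine. For si-EZH2&T350Asr against si-EZH2 187 became 341, 389, 686 and 2 in the first 4 settings, and 424 without both deviating arrays, and against si-EZH2&EZH2sr 19 became 51, 88, 158 and 0, and 94 without them, 57 with quantile normalization, 83 with equal medians, 33 with a pseudocount of 1, 41 with 1 probe set a gene and 0 with the replicate block. For si-EZH2&EZH2sr against si-Control 2115 became 3196 with a mean signal of at least 50, 3724 with the trend and 24 with the experiment alone. Leaving out 1 array moved the counts to between 75 and 872 for si-EZH2&T350Asr against si-Control, 13 and 988 for Roscovitine against DMSO, 914 and 3555 for si-Control against DMSO (3067 with all arrays), 21 and 139 for si-EZH2 against si-Control, 321 and 4516 for si-EZH2&EZH2sr against si-EZH2, 33 and 471 for si-EZH2&T350Asr against si-EZH2, and 383 and 3721 for si-EZH2&EZH2sr against si-Control. For si-EZH2&T350Asr against si-EZH2&EZH2sr it was 0 to 1202, the highest without si-EZH2&EZH2sr replicate 2. Higher and lower calls were 473 and 85 for si-EZH2&T350Asr against si-Control (331 and 172 with quantile normalization), 109 and 18 for si-EZH2 against si-Control (104 and 48), and 1199 and 2279 for si-EZH2&EZH2sr against si-EZH2 (1300 and 1149 with equal medians).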
